A study of Homo sapiens with 6 samples.

Results

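Guanylate-binding proteins (GBPs) and atlastins (ATLs) are 2 branches of the dynamin superfamily of large GTPases, which use GTP to assemble on membranes. The genes GBP1 to GBP7 and ATL1 to ATL3 were chosen by name, through the Ensembl gene identifier of each, and not by their values. They are 10 of the 62710 genes in the expression table. Earlier results of these data were known when these genes were chosen. The cells were HT1080, a human fibrosarcoma line, sequenced as 3 untreated libraries and 3 libraries of cells given 20 ng/mL IFNβ for 24 h. Apart from IFNβ, the labels give the same culture for both groups, with no genetic change and no other agent. The labels name the cytokine as human. The study's methods text on cell treatment likewise gives human IFNβ to all its lines except a mouse line. Its text on the sequencing, which covers HT1080 and that mouse line together, names only a mouse IFNβ. This mismatch within the methods text was not explained in the sources used here. The comparison addresses how IFNβ changes the transcripts of these tumor cells.

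GBPs are among the classical interferon-stimulated genes. Type I interferon signals through the receptor IFNAR1/IFNAR2 and the kinases JAK1 and TYK2 to a complex that contains STAT2 and IRF9 and binds the interferon-stimulated response element (ISRE), while the gamma-activated site (GAS) is the element best known from interferon gamma signaling. The GBP proteins coat cytosolic bacteria and the vacuoles of pathogens and take part in caspase-4 and inflammasome responses, and some of them are anchored to membranes by a lipid added at their C-terminal end (prenylation). Atlastins, in contrast, are anchored in the endoplasmic reticulum (ER), where they fuse tubules into a network, and are not counted among the classical interferon-stimulated genes.

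The 7 GBP genes lie in a cluster of 379.796 kb on chromosome 1 (GRCh38, GENCODE release 29, all protein coding), while the 3 atlastin genes are on chromosomes 14, 2 and 11. On the minus strand of chromosome 1 are GBP3 (chr1:89006666-89022894), GBP1 (chr1:89052319-89065360), GBP2 (chr1:89106132-89150456), GBP7 (chr1:89131751-89176040), GBP4 (chr1:89181148-89198932) and GBP5 (chr1:89258950-89272804). GBP6 (chr1:89364058-89386461) is on the plus strand. ATL1 (chr14:50532509-50633068) is on the plus strand, and ATL2 (chr2:38294880-38377285) and ATL3 (chr11:63624087-63671921) are on the minus strand.

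The promoter windows of the GBP genes are shown because these genes moved together after IFNβ. RefSeq (GRCh38.p14) gave a window of 300 bases, 250 before and 50 after a start, for 8 of the 10 members, with 11 windows in all. They were searched on both strands for the ISRE core GAAANNGAAA, which reads TTTCNNTTTC on the other strand, and for the GAS motif TTCNNNGAA, which reads the same on both. The ISRE core was present in the windows of GBP1, GBP3 and GBP4, that is, 3 of the 5 GBP genes with a window. It was absent from those of GBP6 and GBP7 and from the windows of the 3 atlastins. GBP3 alone among these genes also held a GAS match. Of all 35116 RefSeq windows of this length, 3.57% held the ISRE core, 7.66% the GAS motif and 0.439% both. A match describes letters in these windows and was not tested as a binding site. The windows of GBP1 (chr1:89065159-89065458, minus strand), GBP3 (chr1:89022817-89023116, minus strand), GBP4 (chr1:89198893-89199192, minus strand) and, as a GBP gene without a match, GBP6 (chr1:89363809-89364108, plus strand) read as follows, 5′ to 3′, with the motif letters in capitals.
GBP1: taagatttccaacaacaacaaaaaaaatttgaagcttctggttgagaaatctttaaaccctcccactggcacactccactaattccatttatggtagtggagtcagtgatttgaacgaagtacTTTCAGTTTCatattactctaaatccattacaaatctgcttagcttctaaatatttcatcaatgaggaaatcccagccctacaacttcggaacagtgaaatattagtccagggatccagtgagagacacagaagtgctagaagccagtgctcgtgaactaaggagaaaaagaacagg
GBP3: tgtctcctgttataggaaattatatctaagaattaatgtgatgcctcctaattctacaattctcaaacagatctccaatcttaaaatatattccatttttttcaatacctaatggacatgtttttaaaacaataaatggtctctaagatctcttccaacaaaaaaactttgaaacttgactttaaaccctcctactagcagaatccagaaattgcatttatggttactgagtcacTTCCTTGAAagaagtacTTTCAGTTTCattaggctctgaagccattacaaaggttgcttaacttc
GBP4: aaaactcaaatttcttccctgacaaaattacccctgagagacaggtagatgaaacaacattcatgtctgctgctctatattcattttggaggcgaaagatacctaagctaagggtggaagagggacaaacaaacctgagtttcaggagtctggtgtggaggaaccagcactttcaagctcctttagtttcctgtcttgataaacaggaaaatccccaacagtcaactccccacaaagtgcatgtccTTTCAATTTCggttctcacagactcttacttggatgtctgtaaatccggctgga
GBP6: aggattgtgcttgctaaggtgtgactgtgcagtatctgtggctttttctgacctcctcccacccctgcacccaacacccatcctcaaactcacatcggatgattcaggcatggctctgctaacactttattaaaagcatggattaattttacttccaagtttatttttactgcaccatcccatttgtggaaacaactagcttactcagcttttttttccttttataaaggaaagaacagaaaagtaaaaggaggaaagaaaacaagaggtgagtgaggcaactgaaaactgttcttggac

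The first capitals of GBP3 are the GAS match, 15 to 7 bases before the RefSeq start, and the second are the ISRE core, which lies just after that start. In GBP1, the same 10 letters stand 127 to 118 bases before the RefSeq start, and in GBP4 the match TTTCAATTTC spans it. These positions depend on the annotation. By the outermost start of the gene in GENCODE release 29, the match lies 25 to 34 bases inside GBP1 and 30 to 39 bases inside GBP3. In GBP4 it lies before that start, at -14 to -5. The last 40 bases of the GBP1 window were not found in a release 29 transcript of GBP1. GBP1 and GBP3 share an unbroken run of 19 bases around the motif, gaagtacTTTCAGTTTCat, which begins 134 bases before the RefSeq start of GBP1 and 5 bases before that of GBP3.

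GBP1 and GBP3 are also the pair with the most similar coding sequences. Over 1770 aligned bases of their longest annotated coding sequences, 91.64% were identical. The next pairs were GBP4 and GBP7 with 86.51%, GBP2 and GBP3 with 82.88%, and GBP1 and GBP2 with 82.43%. Identity between the 3 atlastins ran from 68.87% to 70.80%, and between a GBP and an atlastin from 61.31% to 67.11%. The coding sequences encode 586 to 640 amino acids for the GBPs and 541 to 583 for the atlastins. The first 150 coding bases of GBP1 and GBP3, from the GENCODE release 29 transcripts, are shown because the levels of these genes are set side by side further on. The 9 bases that differ are in capitals.
GBP1: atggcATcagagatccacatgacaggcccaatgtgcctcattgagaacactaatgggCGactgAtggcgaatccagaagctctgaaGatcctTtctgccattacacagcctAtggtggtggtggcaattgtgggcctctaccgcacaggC
GBP3: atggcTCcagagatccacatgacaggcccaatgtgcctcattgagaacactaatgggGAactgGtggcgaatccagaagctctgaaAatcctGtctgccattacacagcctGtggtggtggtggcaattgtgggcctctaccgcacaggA

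Reads can be split between genes with shared sequence. Of all windows of 100 bases in the annotated transcripts of GBP1, 1.092% occurred in another gene, the pseudogene GBP1P1, and none of GBP1's and GBP3's windows were shared with each other. For GBP2, 8.416% of the windows were shared with GBP7, and for GBP7, 21.35% with GBP2, whose exons overlap by 621 bases on the same strand. For ATL1, 16.01% of the windows were shared with SAV1, whose exons overlap those of ATL1 by 840 bases on the opposite strand. Whether the counting used the strand is not given in the sources used here. No window of GBP3, GBP6 or ATL2 was shared.

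The libraries held 22848104 to 32915500 fragments, and libraries of the same group differed by more than sampling noise (chi-square per degree of freedom of 1.78 to 3.38). Expression was given as FPKM, which divides the fragments of a gene by its length and by the depth of the library, so levels can be compared between genes. A gene of 1 kb with 1 fragment had 0.0304 to 0.0438 FPKM. Whole fragments behind the values could be worked out for all 35303 genes above 0, up to a factor common to all libraries. The 8 mesenchymal markers, among them VIM and CD44, summed to 1698 to 1751 FPKM in the untreated and 1535 to 1591 FPKM in the IFNβ libraries. PTPRC of leukocytes had at most 6 fragments in a library, EPCAM of epithelium 2 and CDH5 of endothelium 17. Higher among these markers were CLDN4 of epithelium with 36 to 85 fragments, at 0.314 FPKM without and 0.575 FPKM with IFNβ (adjusted p = 0.047), and PECAM1 of endothelium with 35 to 75 fragments (adjusted p = 0.59). The 7 leukocyte markers summed to 0.0976 to 0.321 FPKM without and 0.148 to 0.414 FPKM with IFNβ. The sums were 0.243 to 0.464 and 0.538 to 0.654 FPKM for 5 epithelial markers, and 0.268 to 0.421 and 0.471 to 0.530 FPKM for 4 endothelial markers. These last sums were higher with IFNβ, and their part in the results was not tested. RNA is measured here relative to all RNA of a library. Each library also holds the RNA of many cells together, so a change in some of them cannot be told apart from a change in every cell.

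The 6 GBP genes from GBP1 to GBP6 rose after IFNβ, by log2 fold changes between 2.18 and 4.68, whereas GBP7 stayed at 0 to 5 fragments in a library and was not tested. No atlastin was called, and ATL3 had a lower level in all 3 IFNβ libraries. A gene was called where its limma Benjamini-Hochberg adjusted p was under 0.05 and its log2 fold change, on log2(FPKM + 0.1), was at least 1 in either direction. By this rule 4.22% of the 20716 genes tested were called, 3.49% higher and 0.739% lower, against which 6 of 7 GBP genes were called higher. GBP4, GBP5 and GBP6 passed the filter on low values, a mean of 0.1 FPKM over all libraries, through their level in the IFNβ libraries, while GBP1, GBP2 and GBP3 reached it in the untreated mean too. In 7 of the 9 members tested, the 3 IFNβ libraries lay all above or all below the untreated ones, which held for 46.6% of all genes tested.

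**Figure D1:**
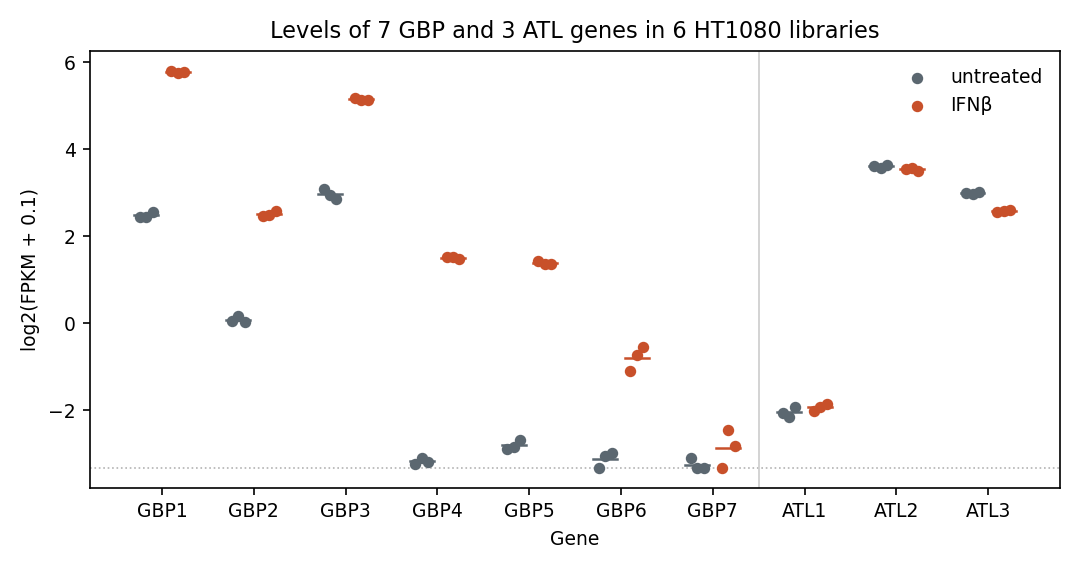
Levels of the 10 genes as log2(FPKM + 0.1) in the 3 untreated and 3 IFNβ-treated HT1080 libraries (each point a library, short lines the mean of 3, dotted line the value of 0 FPKM). The groups of GBP1 to GBP6 lie apart with IFNβ higher, GBP7 stays near the dotted line, and of the atlastins only ATL3 has groups that do not overlap, with IFNβ lower.

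GBP1, a farnesylated GTPase that begins the coat on cytosolic bacteria, had the highest level of the family after IFNβ. Its FPKM was 5.30, 5.33 and 5.83 without IFNβ and 55.9, 53.5 and 54.4 with it. The groups lay far apart, with means of 5.49 ± 0.298 and 54.6 ± 1.18 FPKM (S.D., n = 3 libraries), a ratio of 9.95. On the log2 scale GBP1 rose by 3.29 (SE 0.04, adjusted p = 5.4e-08), rank 91 of the 20716 genes by log2 fold change. These values rest on 739 to 10501 fragments in a library.

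GBP3, which joins the coat that GBP1 begins, was the GBP gene with the highest untreated level. It had 8.34, 7.62 and 7.19 FPKM in the untreated and 36.3, 35.0 and 34.8 FPKM in the IFNβ libraries. No IFNβ library came near an untreated one. The means were 7.72 ± 0.579 and 35.4 ± 0.831 FPKM, and the log2 fold change of 2.18 (SE 0.05, adjusted p = 1.2e-06) was the smallest among the 6 GBP genes tested. This rank turned with a pseudocount of 1, where GBP3 was at 2.06 and GBP2, GBP4, GBP5 and GBP6 were lower, at 1.75, 1.89, 1.75 and 0.55. Without untreated library 1 the rank turned as well, with GBP6 at 2.22 and GBP3 at 2.24.

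GBP2, a geranylgeranylated GBP that is also recruited to the coat, was measured at 0.933, 1.03 and 0.925 FPKM without and at 5.47, 5.48 and 5.91 FPKM with IFNβ. The means, 0.963 ± 0.0590 and 5.62 ± 0.251 FPKM, differed 5.83 times. GBP2 rose by 2.43 on the log2 scale (SE 0.07, adjusted p = 1.7e-06). It thus began below GBP1 and GBP3 and remained below them in all libraries.

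GBP4 and GBP5 were close to absent in untreated cells. GBP4, which lacks the lipid anchor signal and joins the coat through other GBPs, rested on 1, 3 and 2 fragments in untreated cells and on 521, 427 and 475 after IFNβ. Its level in FPKM was 0.00713, 0.0165 and 0.00989 without and 2.76, 2.78 and 2.68 with IFNβ. The IFNβ libraries were alike and far above the untreated ones. The log2 fold change of GBP4, 4.68 (SE 0.13, adjusted p = 2.1e-06), was the largest among the members and rank 41 of all genes tested, whereas with a pseudocount of 1 GBP1 was the largest at 3.10. With so few untreated fragments, the ratio of depth-scaled pooled fragments, 239, had a 95% counting interval of 110 to 653, which covers counting error only.

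GBP5, a geranylgeranylated GBP of the Golgi that restrains the protease furin, had 9, 13 and 20 fragments in the untreated and 874, 681 and 786 in the IFNβ libraries. The corresponding levels were 0.0359, 0.0400 and 0.0554 FPKM and 2.59, 2.49 and 2.48 FPKM. Every IFNβ library was far above every untreated one. GBP5 rose by 4.19 on the log2 scale (SE 0.13, adjusted p = 3.4e-06), and its pooled fragments differed 56.2 times (95% counting interval 41.5 to 78.2). The log2 fold changes of GBP4 and GBP5 depended on the pseudocount, with 1.89 and 1.75 where 1 was added and 7.04 and 5.57 where 0.01 was added, and both stayed called.

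GBP6 and GBP7, the least studied of the human GBPs, were the lowest of the family after IFNβ. For GBP6, 0, 3 and 4 fragments became 53, 59 and 79, that is, 0, 0.0216 and 0.0259 FPKM against 0.367, 0.504 and 0.584 FPKM. The groups did not overlap. GBP6 rose by 2.33 on the log2 scale (SE 0.26, adjusted p = 9.0e-04). With 1 in place of 0.1 added to the FPKM, its log2 fold change was 0.55 and below the threshold of 1, and with 0.01 it was 4.44. Its pooled fragments differed 27.5 times (95% counting interval 13.1 to 69.4).

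GBP7 had 1, 0 and 0 fragments without and 0, 5 and 3 with IFNβ, so the groups overlapped. The FPKM values were 0.0180, 0 and 0 against 0, 0.0823 and 0.0427, and 3 fragments would give 0.0375 to 0.0540 FPKM. The pooled ratio of 8.07 had a counting interval of 1.08 to 358, and 25.3% of GBP7's exon bases also belong to GBP2. GBP7 was below the filter on low values, and its change was not tested over libraries.

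**Figure D2:**
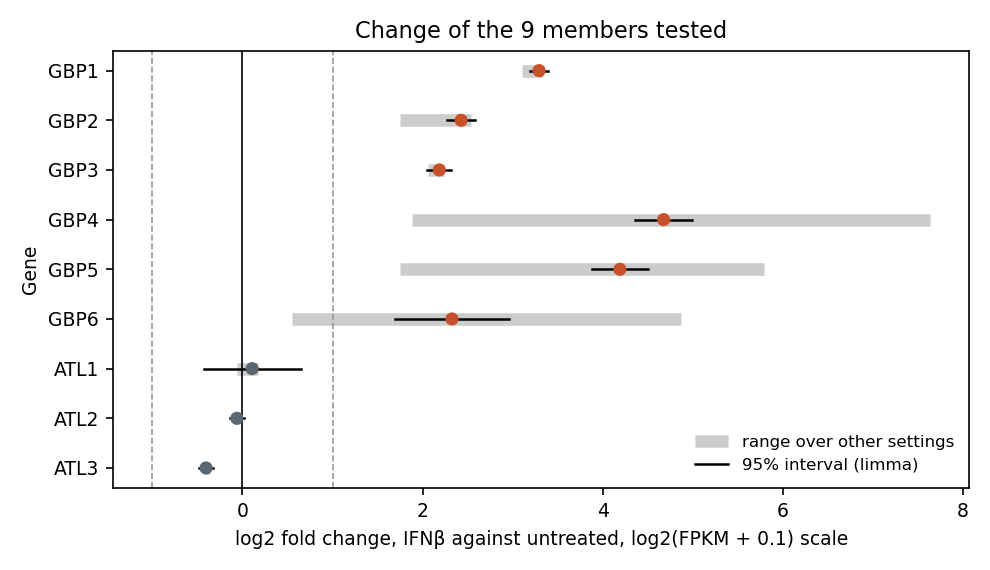
Log2 fold change of the 9 members tested, IFNβ against untreated on log2(FPKM + 0.1), with the 95% interval from limma (black line) and the range over the other settings tried (grey bar). Orange points were called and grey points were not, dashed lines mark the threshold of 1 in either direction, and GBP4, GBP5 and GBP6 have the widest ranges.

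Among the atlastins, ATL3, which tethers and fuses ER tubules and has been described as a receptor for the autophagy of ER tubules, was lower after IFNβ. Its level was 7.93, 7.72 and 7.96 FPKM in the untreated and 5.83, 5.90 and 6.03 FPKM in the IFNβ libraries. All 3 IFNβ libraries were below the lowest untreated one. The means were 7.87 ± 0.134 and 5.92 ± 0.10 FPKM, a ratio of 0.752. ATL3 decreased by 0.40 on the log2 scale (SE 0.03, 95% interval -0.48 to -0.33, adjusted p = 1.6e-04), which passed the adjusted p but not the fold threshold. By the adjusted p alone, 17.5% of all genes tested were lower, against which 1 of the 3 atlastins was.

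ATL2, the other broadly expressed ER fusion GTPase, was the most abundant member in untreated cells. It had 12.2, 11.7 and 12.4 FPKM without and 11.6, 11.8 and 11.3 FPKM with IFNβ, and the groups overlapped. The log2 fold change was -0.06 (SE 0.03, 95% interval -0.14 to 0.02, adjusted p = 0.20). This interval belongs to the main setting, and the estimate ran from -0.087 to -0.027 over the other settings.

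ATL1 is the atlastin of neurons, in which mutations cause a hereditary spastic paraplegia, and it was barely measured here. It had 0.141, 0.125 and 0.166 FPKM in the untreated and 0.148, 0.163 and 0.176 FPKM in the IFNβ libraries, on 53 to 90 fragments. Its level depends on the gene length, which was 16489 bases in the FPKM and 4360 bases in release 29, and with the latter the means were 0.544 and 0.614 FPKM in place of 0.144 and 0.162 FPKM. The groups overlapped, and the log2 fold change of 0.11 (SE 0.22, 95% interval -0.43 to 0.65, adjusted p = 0.77) had a wide interval. SAV1, the neighbor on the opposite strand that shares part of its exons, had a mean of 6.63 FPKM without and 9.61 FPKM with IFNβ, and its part in the values of ATL1 was not tested.

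The order of the levels changed with IFNβ. In untreated cells it was ATL2, ATL3, GBP3, GBP1, GBP2, ATL1, GBP5, GBP6, GBP4 and GBP7, from high to low. The ranges of ATL3 and GBP3 overlapped, as did those of GBP6 and GBP4 and of GBP4 and GBP7. After IFNβ the order was GBP1, GBP3, ATL2, ATL3, GBP2, GBP4, GBP5, GBP6, ATL1 and GBP7, and the ranges of ATL3 and GBP2 overlapped. GBP1 thus went from the fourth place to the first, and it passed both GBP3 and the 2 abundant atlastins. These levels depend on the gene length used, and with exon lengths of GENCODE release 29, chosen after seeing the data, ATL3 and GBP2 as well as GBP4 and GBP5 changed places after IFNβ.

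Summed over the 7 GBP genes, the level was 14.6, 14.1 and 14.0 FPKM in the untreated and 103, 99.9 and 101 FPKM in the IFNβ libraries. The means of 14.2 ± 0.336 and 101 ± 1.80 FPKM differed 7.12 times. Counted as fragments, the GBP genes went from 74.1 ± 1.03 to 572 ± 10.1 fragments per 1000000 fragments of a library. GBP1 and GBP3 made up most of the sum in every library, but their order turned.

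GBP3 was 57.0%, 54.2% and 51.2% of the GBP sum in untreated cells and 35.1%, 35.1% and 34.5% after IFNβ. GBP1 was 36.2%, 37.9% and 41.5% without and 54.0%, 53.6% and 53.9% with IFNβ. By FPKM, GBP3 was the larger part in all untreated libraries and GBP1 in all IFNβ libraries. With the gene lengths of release 29, their untreated order was kept, with closer means of 6.71 FPKM for GBP1 and 7.69 FPKM for GBP3. In fragments, not divided by length, GBP1 had 739, 965 and 1171 in the untreated libraries and GBP3 816, 969 and 1014. GBP2 took a mean of 6.77% without and 5.54% with IFNβ, and GBP4 and GBP5 went from 0.0788% and 0.308% to 2.70% and 2.48%.

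The ratio of GBP1 to GBP3, chosen after the values were seen, was 0.636, 0.699 and 0.811 in the untreated and 1.54, 1.53 and 1.56 in the IFNβ libraries. The ratio of ATL2 to ATL3, chosen likewise, was 1.54, 1.51 and 1.55 without and 1.99, 2.01 and 1.87 with IFNβ. In each case all IFNβ libraries were above all untreated ones. The exact permutation test, two-sided, gave p = 0.10 for each ratio, the smallest p that 3 against 3 libraries allow.

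**Figure D3:**
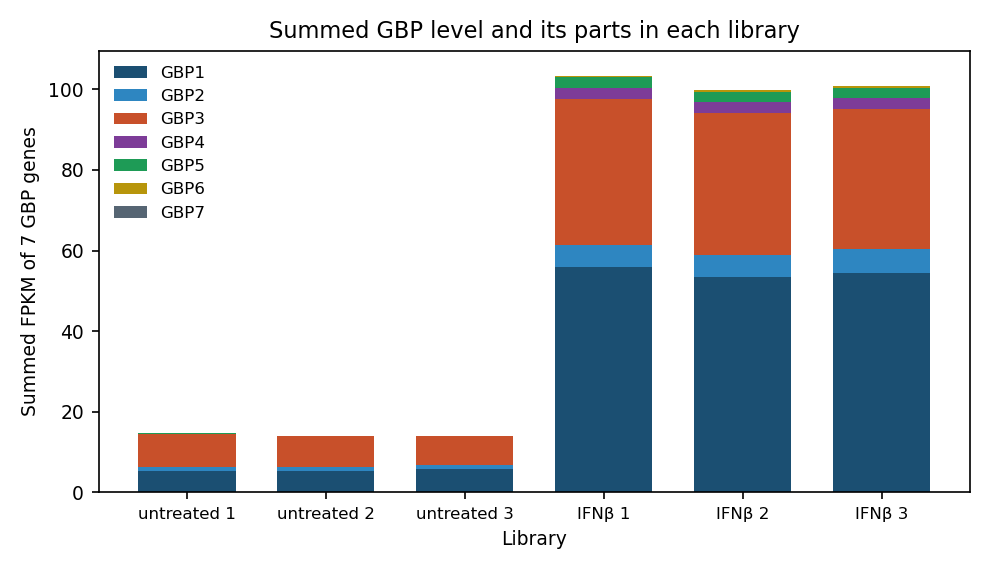
Summed FPKM of the 7 GBP genes in each of the 6 libraries, stacked by gene from GBP1 at the bottom. The bars reach 14.0 to 14.6 FPKM without and 99.9 to 103 FPKM with IFNβ, with GBP3 the larger of the 2 main parts in untreated and GBP1 in IFNβ libraries.

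Around the GBP cluster, the called genes were GBP genes and a neighboring GBP pseudogene. Within 500 kb on either side of the outermost GBP genes and between them lie 25 other annotated genes, of which 13 were tested, 1 was called higher and 0 lower. The 1 called gene, named after its values were seen, was the pseudogene GBP1P1, next to GBP6, with a mean of 0.0148 FPKM without and 1.63 FPKM with IFNβ and a log2 fold change of 3.92 (SE 0.17, adjusted p = 1.7e-05). It rested on 0 to 88 fragments, and as a copy of GBP1 it may share reads with that gene. None of the 6 protein-coding neighbors tested was called, beside 4.22% of all genes tested, so a count of 0 does not set them apart. By the adjusted p alone, 6 of the 13 neighbors passed, GBP1P1 among them, against 15.2% of all genes higher and 17.5% lower. RBMXL1, the nearest protein-coding gene on the side of GBP3, had a log2 fold change of 0.22 (SE 0.04, adjusted p = 0.0075), and LRRC8B, the nearest on the side of GBP6, one of -0.38 (SE 0.08, adjusted p = 0.014). Further out, GTF2B on the side of GBP3 had one of 0.75 (SE 0.05, adjusted p = 1.4e-04). LRRC8C, on the side of GBP6, had one of -0.43 (SE 0.04, adjusted p = 4.0e-04). These genes are below the fold threshold, higher on the side of GBP3 and lower on that of GBP6.

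**Figure D4:**
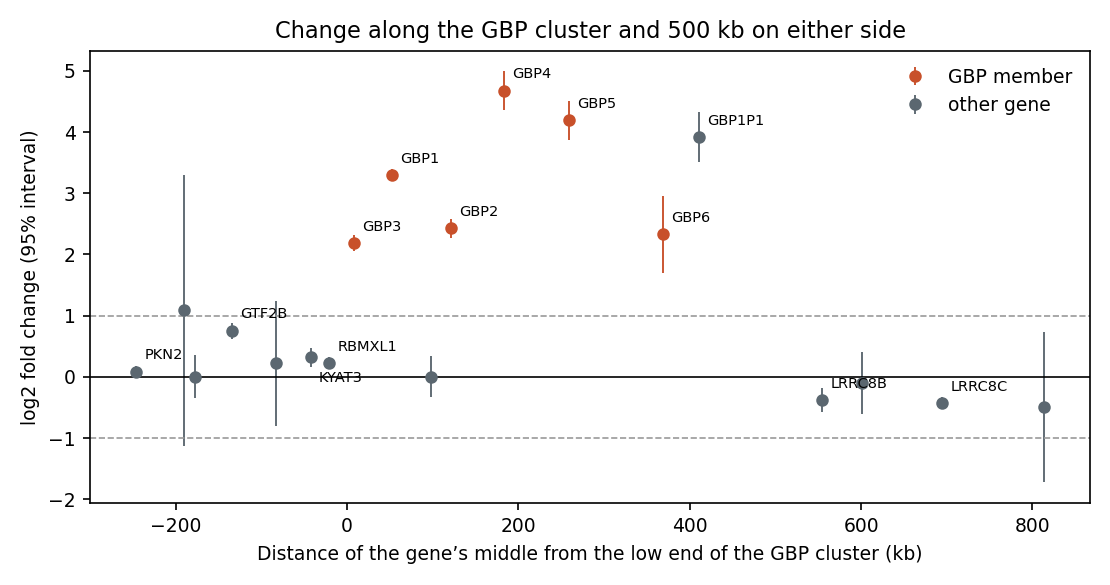
Log2 fold change with its 95% interval (vertical axis) for the genes tested in and around the GBP cluster, by the distance in kb of the gene's middle from the low end of the cluster (horizontal axis). The 6 GBP genes tested (orange) and GBP1P1 lie above the upper dashed line at 1 with their whole interval, and the 6 named protein-coding neighbors (grey) lie between the dashed lines.

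The signaling genes upstream of the GBPs rose in part. Of 14 genes from the receptors to the feedback inhibitors, 6 were called higher and 0 lower, beside 3.49% and 0.739% of all genes tested. This list, like those below, was chosen with earlier results of these data known. Its median log2 fold change was 0.60, against 0.00 over all genes tested. USP18, which damps signaling at IFNAR2, rose by 6.38 (SE 0.13), STAT2 by 3.35 (SE 0.03), IRF9 by 2.79 (SE 0.15) and IRF1, a transcription factor that also binds ISREs, by 1.21 (SE 0.09). STAT2 went from a mean of 3.88 to 40.6 FPKM, beside 5.49 to 54.6 FPKM of GBP1. None of the 4 receptor chains IFNAR1, IFNAR2, IFNGR1 and IFNGR2 was called, with log2 fold changes between -0.20 and 0.32.

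Of 12 genes that act with or downstream of GBPs, 10 were tested, with a median of 0.71. Among them 4 were called higher and 0 lower, beside 3.49% and 0.739% of all genes tested. APOL3, an apolipoprotein that permeabilizes GBP-coated bacteria, rose by 4.01 (SE 0.11), from 0.216 to 4.99 FPKM. AIM2, a sensor of cytosolic DNA, rose by 3.69 (SE 0.16), the protease CASP1 by 2.54 (SE 0.04) and GSDMD, which forms pores in cell death by pyroptosis, by 1.24 (SE 0.04). CASP4, the receptor for lipopolysaccharide on GBP-coated bacteria, had a log2 fold change of 0.79 (SE 0.04, adjusted p = 3.5e-05), below the fold threshold. CASP5 had no fragment in any library and PYCARD, the inflammasome adaptor, at most 5, and neither was tested.

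The enzymes that add the lipid anchor to GBP1, GBP2 and GBP5 were expressed in all libraries and were not called. Of 8 genes of prenylation and its later steps, 0 were called in either direction, beside 4.22% of all genes, with a median of -0.04. At an adjusted p under 0.05 alone 1 was higher and 1 lower, against 15.2% and 17.5% of all genes, so that the list stayed near the background. ICMT, the methyltransferase of the last step, had the largest absolute log2 fold change, -0.28 (SE 0.02, adjusted p = 2.2e-04).

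Among 10 other GTPases of the dynamin superfamily, 9 were tested, with a median of -0.11. Of these, 2 were called higher and 0 lower, beside 3.49% and 0.739% of all genes tested. The 2 were the antiviral proteins MX2, which rose by 8.53 (SE 0.06), and MX1, which rose by 7.70 (SE 0.12), beside 4.68 of GBP4, whose own value depends on the pseudocount. Their levels after IFNβ were 43.3 and 70.6 FPKM, beside 54.6 FPKM of GBP1. The dynamins and the mitochondrial fusion and fission GTPases tested were not called, with log2 fold changes between -0.37 and 0.10. Of 3 immunity-related GTPases, 2 were tested and 0 were called, beside 4.22% of all genes tested, so a count of 0 does not set them apart. IRGM, the human member linked to autophagy, had the larger log2 fold change, 0.83 (SE 0.26, adjusted p = 0.054), at 0.0911 FPKM without and 0.243 FPKM with IFNβ.

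The atlastins were also set beside 24 genes that shape ER tubules and sheets or serve ER-phagy. Of these, 22 were tested, with a median of -0.02. The number called was 0, beside 4.22% of all genes tested, so a count of 0 does not set them apart. At an adjusted p under 0.05 alone, 4 were higher and 3 lower, near the shares over all genes of 15.2% higher and 17.5% lower. RRBP1, a protein of ER sheets, had the largest absolute log2 fold change, 0.62 (SE 0.02, adjusted p = 5.5e-06), against -0.40 of ATL3.

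**Figure D5:**
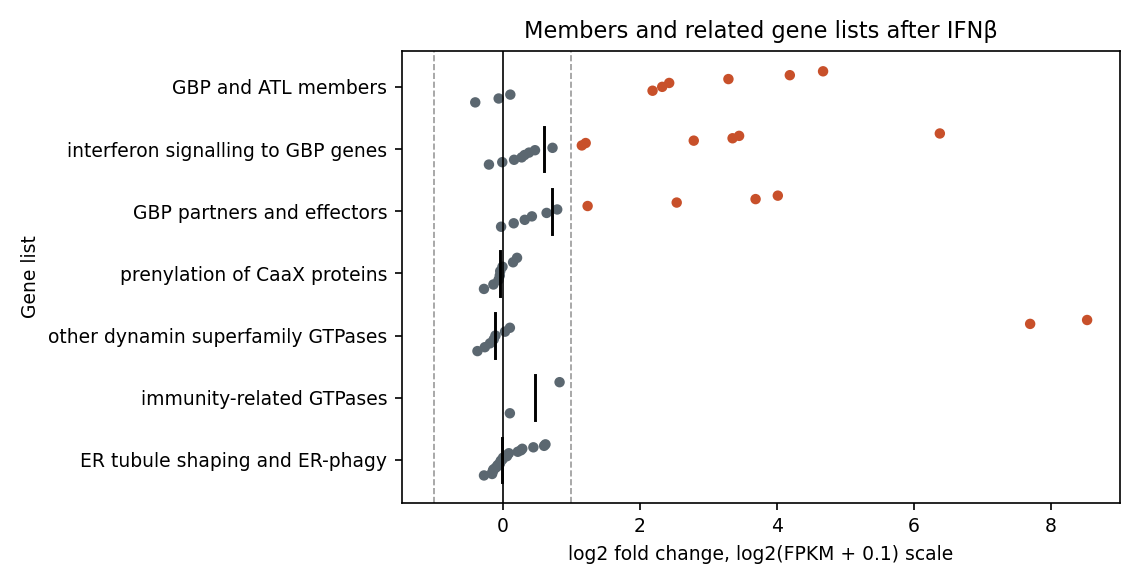
Log2 fold change on log2(FPKM + 0.1) of each gene tested (points) among the members and the 6 lists, with called genes in orange, the median of each list as a black line and dashed lines at 1 in either direction. Called genes are found among the GBPs, the signaling genes, the GBP partners and, with MX1 and MX2, the other dynamin superfamily GTPases.

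For each called member, the 3 genes with the most similar pattern were taken from 11989 other genes with a mean of at least 1 FPKM, by the Euclidean distance over the 6 libraries of log2(FPKM + 0.1) centered on each gene's mean. With only 2 groups, this likeness mainly ranks genes by the size of their change. Nearest to GBP1 were STAT2 at a distance of 0.12, PLSCR1 at 0.16 and SP110 at 0.21. GBP2 had APOBEC3F at 0.08 and LAP3 at 0.10, and GBP3 had PML, IFITM2 and WARS1 at 0.12 to 0.16. GBP4 had HELZ2 at 0.04, HLA-F at 0.19 and IFI35 at 0.21, GBP5 had PARP9, SAMD9 and PARP14 at 0.20 to 0.26, and GBP6, with few fragments, had HES4 at 0.34 and PSMB10 at 0.40.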

How the data were processed

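RNA of 3 untreated and 3 IFNβ-treated HT1080 libraries was sequenced, and the authors deposited 1 FPKM value per Ensembl gene and library, with no pooling. The submitters' processing notes name fastp, HISAT2, StringTie and GRCh38, without versions or order. The annotation and gene lengths are not given in the sources used here. Of the 62710 identifiers, 4436 are not in GENCODE release 29, so locations from it may differ from the authors' annotation, and levels depend on their lengths. For GBP1, GBP2, GBP4, GBP5, GBP6, ATL1 and ATL2, the length inside the FPKM was longer than the exons of release 29.

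The members, lists and tests were chosen with earlier results of these data known. FPKM proportions across libraries gave whole fragments for 100% of the 35303 genes above 0 (tolerance 1e-08). Genes with a mean of at least 0.1 FPKM were tested with limma (version 3.58.1, R 4.3.3; lmFit, eBayes with an intensity trend, two-sided) on log2(FPKM + 0.1), without covariates. Adding 0.1 understates the change of low genes. Adjusted p-values (Benjamini-Hochberg) are over all genes tested. The steps were tested on simulated data. The labels do not say whether the libraries came from separate cultures. The study says of its cell experiments in general that replicates were biological and independent, without naming the sequencing. The p-values measure the spread between these libraries, which may be technical.

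Besides the members, the text names up to 5 called genes per list and direction by absolute log2 fold change, the gene that changed most in lists without a call, the nearest protein-coding neighbors of the GBP cluster and the 3 genes most like each called member. Some genes that this rule selects are not reported here. Receptors, markers, CASP4, CASP5, PYCARD, SAV1, GBP1P1, GTF2B and LRRC8C were named in addition, after their values were seen. Coding identity came from global pairwise alignments (Biopython 1.88). Pseudocounts, filters, scalings, a limma-voom fit of the fragments, a replicate block and leaving out each library were tried as alternatives.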

Additional observations from a re-analysis of the deposited data

How the results depend on the processing

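The calls of GBP1 to GBP5 and the directions of ATL2 and ATL3 were kept under every alternative tried. The log2 fold changes ran over 3.10 to 3.34 for GBP1, 1.75 to 2.54 for GBP2, 2.06 to 2.24 for GBP3, 1.89 to 7.63 for GBP4, 1.75 to 5.79 for GBP5, 0.55 to 4.87 for GBP6 and -0.43 to -0.36 for ATL3. For GBP4 to GBP6 the lowest values came with a pseudocount of 1 and the highest with limma-voom on the recovered fragments. GBP6 lost its call with a pseudocount of 1 and was not tested at a mean of at least 1 FPKM. ATL1 turned to -0.064 under quantile normalization, and the cause was not tested. With the adjusted p alone, 1 atlastin (0 otherwise), 36 genes of the lists and 6 neighbors were called, since the fold threshold is dropped. In the main setting, 12 genes of the lists and 1 neighbor were called. The count for the lists ran from 10 with a pseudocount of 1 to 13 with limma-voom over the remaining settings. At a mean of at least 1 FPKM, 0 neighbors were called, as GBP1P1 was no longer tested. With the lengths of release 29, 4 members took another rank after IFNβ. Over all genes, 875 were called, 425 at a mean of at least 1 FPKM, 304 with a pseudocount of 1 and 6778 with the adjusted p alone. Of the calls, 82.5% were higher, and 73.4% under quantile normalization.

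Same-numbered deviations from the group means correlated at 0.053, -0.018 and 0.12, and differently numbered ones at -0.15 to 0.099. With few libraries in a group, the deviations from its mean are tied together. These values therefore cannot decide whether the replicate numbers of the labels pair the libraries. With the replicate number as a block, 6 members and 829 genes in all were called.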
